A study of Mus musculus with 3 samples.

Results

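Krt17-positive basal keratinocytes of mouse skin, sought as the bulge and outer root sheath of the hair follicle, numbered 1288 of the 20728 cells kept, with 226 in the UV library, 381 in the UV plus VD library and 681 in the Control library. A cell was a member when it held at least 3 counts of Krt17, none of Krt79, Ptprc and Col1a2, and more counts of Krt5, Krt14 and Krt15 together than of Krt1 and Krt10 together. It also had to hold fewer than 3 counts of the hair genes Krt25, Krt27, Krt71, Krt35, Krtap8-1 and Msx2 together, fewer than 2 of Stfa3, at least 200 detected genes and at most 20% mitochondrial counts. The study profiled dissociated skin of 9-week-old C57BL/6 mice as single cells on the Singleron GEXSCOPE system. The UV group was irradiated and received saline, the UV plus VD group was irradiated and received VD, which the study's title gives as vitamin D, and the Control group was not irradiated and received saline. There was 1 library per group, so every difference below describes these libraries, no test between conditions was possible, and intervals (95%) cover counting error only. Nothing in the labels gives the number of mice behind a library, the dose of UV or VD, or the time of sampling.

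The outer root sheath is the sleeve of basal-type epithelium that continues the epidermis down the hair follicle, and the bulge is the stretch of it that houses the follicle's stem cells. Bulge cells are known in mice for the surface protein Cd34, the transcription factors Lhx2, Sox9 and Nfatc1, the Wnt co-receptor Lgr5 and the keratin Krt15, while Krt17 is carried by most follicle epithelium and is also induced in stressed or wounded epidermis. After injury to the epidermis, follicle cells can move out and help rebuild it.

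The values go against the label in the UV plus VD and Control libraries and in the UV library hold for a minority of members. At least 1 count of Cd34, Lhx2 or Lgr5 was found in 40 UV members, or 17.7% (exact binomial interval 13.0 to 23.3). The same was found in 4 UV plus VD members, or 1.05% (0.287 to 2.67), and in 3 Control members, or 0.441% (0.0909 to 1.28). At least 2 of those 3 genes shared a cell in 10 UV members and in 0 members of either other library. The cells are therefore called by their rule, Krt17-positive basal keratinocytes, and not by a place in the follicle.

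Free RNA in the suspension gives counts to cells that do not express a gene. Each gene was therefore set against cells with a leukocyte gene in the same library. Those cells held Ptprc, the leukocyte protein CD45, and fewer than 10 counts of Krt5 and Krt14 together: 747 in the UV library, 145 in the UV plus VD library and 210 in the Control library. Their median totals were 4624, 5407 and 5057 counts, in that order of libraries, close to the 4610.5, 5126 and 4524 counts of the members. Their counts of Krt1 and Krt10 were not limited, so differentiated keratinocytes with a count of Ptprc can be among them. Leukocytes can also express a gene themselves, which was not tested. Where these cells reached the level of members, the comparison therefore cannot tell free RNA from expression in members.

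Lhx2, a LIM-homeodomain factor of follicle stem cells, was found in 8.41% of UV members, 1.05% of UV plus VD members and 0.147% of Control members. In Ptprc-positive cells Lhx2 was found in 0.937% of UV cells and in none of the UV plus VD and Control cells. Lgr5 was found in 7.08% of UV members and in 0.147% of Control members, and in 0 of 381 UV plus VD members, which allows a share of up to 0.787%. Among Ptprc-positive cells of the UV library Lgr5 reached 0.535%. With every cell thinned to 2500 counts the shares were 4.87% for Lhx2 and 3.98% for Lgr5 in UV members. Both genes thus stayed above the Ptprc-positive cells of that library.

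Cd34 was less clear, although 7.08% of UV members held it, against 0.147% of Control members and 0 of the UV plus VD members. Ptprc-positive cells of the UV library held Cd34 in 3.61% of cells, and its summed level there was 28.7 CPM, counts scaled to a common total, above the 18.7 CPM of UV members. The share and the level thus run opposite ways for Cd34, and no order is read from them. Of all Cd34 counts in the UV library, 0.752% lay in members, and 423 of the 528 Cd34-positive cells of that library also held the fibroblast collagen Col1a2.

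Sox9, needed to set up and keep follicle stem cells, was found in 34.5% of UV members (28.3 to 41.1), 12.9% of UV plus VD members (9.67 to 16.6) and 9.84% of Control members (7.71 to 12.3). Ptprc-positive cells held Sox9 in 6.43%, 4.83% and 4.29% of cells of the UV, UV plus VD and Control libraries. Thinned to 2500 counts, the shares of Sox9 were 26.1% of UV members, 7.09% of UV plus VD members and 7.20% of Control members, so only the UV library stood apart. Krt15, which is part of the rule, ran the other way, in 72.1% of UV members, 89.0% of UV plus VD members and 89.6% of Control members, and in 5.35%, 10.3% and 19.0% of Ptprc-positive cells in that order. Nfatc1 was found in 9.29% of UV members, 13.4% of UV plus VD members and 10.4% of Control members, and in 11.9%, 15.2% and 10.95% of Ptprc-positive cells in that order. Whether Ptprc-positive cells express Nfatc1 themselves was not tested, so this comparison cannot tell free RNA from expression in members.

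**Figure D1:**
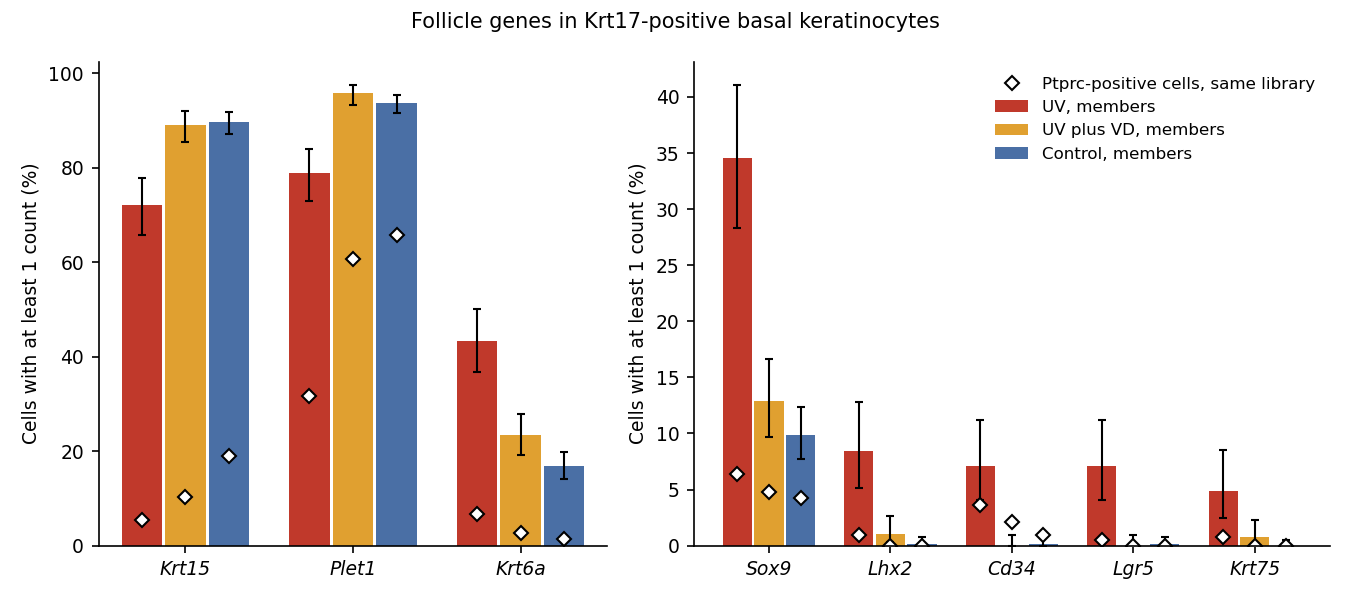
Share of members with at least 1 count of each gene, in percent on the y axes (the panels differ in scale). Bars are the UV, UV plus VD and Control libraries with exact binomial 95% intervals, and diamonds are Ptprc-positive cells of the same library; Sox9 reaches 34.5% in UV members, against 9.84% in Control members.

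Krt17 itself, which chose the members, ran from 3 to 171 counts per cell with a median of 12 in UV members, from 3 to 105 with a median of 9 in UV plus VD members, and from 3 to 160 with a median of 9 in Control members. Summed over members it stood at 3595 CPM in UV, 2310 CPM in UV plus VD and 2153 CPM in Control. Ptprc-positive cells reached the 3 counts of the rule in 5.62% of UV cells, 3.45% of UV plus VD cells and 8.57% of Control cells. Just inside the threshold, 17 UV, 29 UV plus VD and 68 Control members held exactly 3 counts, with Sox9 in 23.5%, 3.45% and 11.8% of them in that order. Just outside it, 28 UV, 62 UV plus VD and 139 Control cells held 2 counts and met the rest of the rule, with Sox9 in 14.3%, 6.45% and 6.47% of them in that order.

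**Figure D2:**
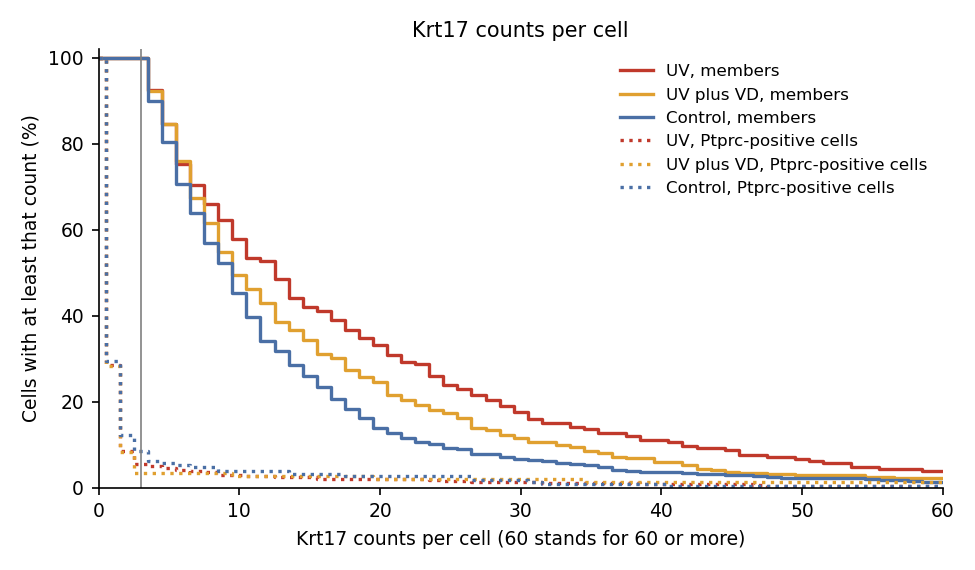
Share of cells, in percent, with at least the number of Krt17 counts on the x axis, for members (solid) and Ptprc-positive cells (dotted) of the 3 libraries. The grey line marks the 3 counts of the rule, and medians of members are 12 in UV and 9 in UV plus VD and Control.

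Members made up 4.15% of cells in the UV library (3.63 to 4.71), 6.15% in the UV plus VD library (5.56 to 6.77) and 7.50% in the Control library (6.97 to 8.06). The share was 1.81-fold lower in UV than in Control (interval 1.56 to 2.10) and 1.48-fold higher in UV plus VD than in UV (1.26 to 1.74). Both ratios depended on Krt79, a keratin of the upper follicle and sebaceous duct, and on what the cells were counted against. Cells that met the rule but for holding Krt79 numbered 190 in UV, 50 in UV plus VD and 99 in Control, and with them included the ratio to Control was 0.888 for UV, and the ratio to UV was 0.911 for UV plus VD. Counted over keratin-expressing cells only, members made up 7.45% in UV, 7.08% in UV plus VD and 8.47% in Control.

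Within each library the members were set against basal keratinocytes that met the rest of the rule but held no Krt17, which numbered 99 in UV, 162 in UV plus VD and 397 in Control. These cells also had to hold at least 10 counts of Krt5 and Krt14 together, which was not asked of members. Since Krt17 chose both sets, these differences are a description. A gene was counted as apart when its CPM plus 10 differed at least 1.5-fold and the higher side held 20 counts or more. Of 4743 genes with enough counts in all 3 libraries, 36 (0.759%) were higher in members in each library and 4 (0.0843%) were lower in each. The shares within single libraries were 13.5% higher and 4.46% lower in UV, 7.5% and 2.95% in UV plus VD, and 3.6% and 2.35% in Control.

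Ranked by the smallest of the 3 ratios, Fam167a, Epgn, Fst and Tslp led the genes higher in members. Fam167a stood at 94.2 CPM in UV members and 4.41 CPM in Krt17-negative cells, at 53.5 and 8.36 CPM in UV plus VD, and at 43.3 and 6.25 CPM in Control. Epgn, an EGF receptor ligand, stood at 489 CPM in UV members and 139 CPM in Krt17-negative cells, at 345 and 106 CPM in UV plus VD, and at 696 and 192 CPM in Control. Tslp, a cytokine that keratinocytes release in allergic inflammation, stood at 248 and 92.5 CPM in UV, 403 and 59.7 CPM in UV plus VD, and 383 and 91.4 CPM in Control, members first. Fst, the activin inhibitor follistatin, stood at 106 and 11 CPM in UV, 84.2 and 25.1 CPM in UV plus VD, and 97.7 and 22.7 CPM in Control. The members were the higher side in every library for these genes, and the gaps for Fam167a and Fst were widest in UV.

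Other genes of this set build or pull on the cytoskeleton and the basement membrane. Tpm1, a tropomyosin, stood at 1051 CPM in UV members and 586 CPM in Krt17-negative cells, at 1249 and 490 CPM in UV plus VD, and at 1056 and 354 CPM in Control. Tpm2, Flna, Zyx, Smtn, Capn2, the integrin chain Itgb1 and the laminin chain Lama3 were on the higher side as well, as were Egfr, the urokinase receptor Plaur, the NF-kappaB subunits Nfkb1 and Nfkb2, and the activation keratins Krt16 and Krt6a. Sox9 belonged to this set too, at 175 and 28.6 CPM in UV, 36.4 and 7.17 CPM in UV plus VD, and 32.4 and 11.4 CPM in Control. The 4 genes on the lower side were Capns2, Cdkn2d, Npl and Rora, of which Rora encodes a nuclear receptor that acts in keratinocyte differentiation and in the clock.

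Libraries were compared next, over counts summed across members: 1177840 in UV, 2446380 in UV plus VD and 3952881 in Control. A gene was called higher or lower when its CPM plus 10 differed at least 1.5-fold, provided the library with more held 20 counts or more, and log2 ratios are on that CPM plus 10 scale. Fold values without a log2 are ratios of CPM with exact conditional intervals. Libraries differed in other lineages as well: summed over a list of 16 fibroblast markers, members held 695 CPM in UV, 395 CPM in UV plus VD and 449 CPM in Control, and over 16 endothelial and mural markers 81.5, 12.3 and 17.0 CPM in that order. Over 11 melanocyte markers they held 88.3, 41.3 and 22 CPM, over 18 sebocyte markers 225, 132 and 133 CPM, over 25 immune markers 128, 134 and 204 CPM, and over 22 hair matrix and shaft markers 131, 127 and 112 CPM. Over 10 eccrine, nail and muscle markers they held 10.2 CPM in UV, 92.4 CPM in UV plus VD and 2.28 CPM in Control, and in UV plus VD 98.3% of the counts of the muscle actin gene Acta1 came from 1 cell. The part of these counts in the results below was not tested. For genes given with their CPM, a level in Ptprc-positive cells that reached that of members is therefore mentioned, for the library in which members held most. List counts include further genes that did not exceed those cells, not all of them named. Libraries shared 55 barcodes (UV and Control), 37 (UV plus VD and UV) and 66 (UV plus VD and Control), and no member barcode was shared.

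Among the genes higher in UV members than in Control members were bulge genes, cell division genes and the activation keratin Krt6a, and among those lower were Nr1d1, Adm, Ly6d, Serpinb2, Ifi202b and the cyclooxygenases. Of 7466 genes, 688 (9.22%) were higher in UV and 412 (5.52%) lower, with a median log2 ratio of 0.02. Of 18 measured genes of the 26 on the bulge stem cell list, 13 were higher and 0 lower, and their median was 1.44. Of the 18, 8 reached the 20 counts in UV alone, and all 8 were among the higher ones; of the 10 that reached 20 counts in Control, 5 were higher, with a median of 0.61. Krt15 is on that list and in the rule, and was left out. Of the 13, Cd34, Runx1 and Fgfr1 did not exceed the level of Ptprc-positive cells in the UV library and the other 10 did.

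Of the bulge list, Lhx2, Sox9 and Foxc1 encode transcription factors. Lhx2 held 25.5 CPM in UV members, 1.64 CPM in UV plus VD members and 0.253 CPM in Control members, and with 1 count in Control its ratio of 101 has an interval of 16.7 to 4108. Sox9 held 175 CPM in UV, 36.4 CPM in UV plus VD and 32.4 CPM in Control, and was 5.40-fold higher in UV than in Control (4.31 to 6.79). Foxc1, which keeps bulge stem cells quiescent in mice, held 27.2 CPM in UV, 5.31 CPM in UV plus VD and 2.53 CPM in Control. All 3 were high in UV alone.

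Wnt components of the list were also highest in UV. Lgr5, a receptor for R-spondins, held 18.7 CPM in UV, 0 in UV plus VD and 0.759 CPM in Control, where all 3 counts lay in 1 cell, so that its ratio of 24.6 has an interval of 7.39 to 128. Wif1, a secreted Wnt inhibitor, held 22.9 CPM in UV, 3.68 CPM in UV plus VD and 1.01 CPM in Control. Of 20 measured genes of the Wnt list, 9 were higher in UV and 1 lower, with a median of 0.30, and the lower one was the ligand Wnt3, at 69.6 CPM in UV, 96.1 CPM in UV plus VD and 122 CPM in Control. The Wnt median depended on the minimum of 20 counts. It was 0.04 over the 17 genes that met this minimum in Control, 6 of them higher. Over the 14 that met it in UV it was 0.60, and 8 of those were higher. Only UV met the minimum for 3 genes, each of them higher, and only Control for 6 genes, 0 of them lower.

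Of 23 measured genes of the hemidesmosome and basement membrane list, 4 were higher in UV (Tnc, Postn, Npnt and Fermt1) and 1 lower (Col17a1), and their median was -0.05. Tnc, the matrix glycoprotein tenascin-C, held 69.6 CPM in UV, 6.13 CPM in UV plus VD and 2.02 CPM in Control, 34.4-fold higher in UV than in Control (16.7 to 82.3). Postn, the matrix protein periostin, held 91.7 CPM in UV, 14.3 CPM in UV plus VD and 25.6 CPM in Control, but 139 CPM in UV and 115 CPM in Control among members with Cd34, Lhx2, Lgr5 or Sox9, a gap under 1.5-fold. Ptn, the growth factor pleiotrophin, held 224 CPM in UV, 92.8 CPM in UV plus VD and 62.7 CPM in Control. Over all members UV was the highest library for each. Bgn, the proteoglycan biglycan, held 64.5 CPM in UV, 0.409 CPM in UV plus VD and 0.759 CPM in Control, but Ptprc-positive cells of the UV library held 52.4 CPM of it. The fibroblast markers Dcn, Col1a1 and Col3a1 were higher in the same library, at 60.3, 33.1 and 23.8 CPM in UV members and 6.07, 4.81 and 3.04 CPM in Control members, below the Ptprc-positive cells, and their part in the values above was not tested.

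Other genes with the largest gaps were of mixed kind. Krt6a, an inner bulge and companion layer keratin that epidermis makes when activated, held 633 CPM in UV, 110 CPM in UV plus VD and 69.6 CPM in Control, 9.10-fold higher in UV than in Control (7.92 to 10.5). Krt75, the companion layer keratin, held 33.1 CPM in UV, 3.27 CPM in UV plus VD and 0 in Control, and lay in 11 UV members. The exact interval of its UV to Control ratio had a lower limit of 33.8 and no upper limit. Pthlh, the parathyroid hormone-like hormone, held 116 CPM in UV, 16.4 CPM in UV plus VD and 5.82 CPM in Control, and the interval of the UV to Control ratio ran between 12.8 and 32.6. Krt6a and Pthlh stayed far above the Ptprc-positive cells of the UV library, which held 40.6 CPM of Krt6a and 0.416 CPM of Pthlh.

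Alcam, a cell adhesion molecule, held 67.9 CPM in UV, 4.09 CPM in UV plus VD and 6.07 CPM in Control. Calml3 and Mgst1 were also high in UV, at 107 and 75.6 CPM, but Ptprc-positive cells of that library held 204 CPM of Calml3 and 88.0 CPM of Mgst1. Of 22 measured differentiation genes, 4 were higher in UV (Flg, Calml3, Cdsn and Hrnr), none of them above the Ptprc-positive cells, and 7 lower (Lce1c, Lce1a1, Skint6, Lce1b, Lor, Krtdap and Tgm3), and their median was -0.24. The log2 ratio of Lce1c turned to 0.65 without the 5% of cells with the highest totals, and to 0.90 in members with Cd34, Lhx2, Lgr5 or Sox9. Of 17 measured stress keratins and alarmins, 4 were higher in UV (Krt6a, Sprr1b, Fabp5 and Stfa1) and 1 lower (Serpinb2), with a median of -0.17, and of the 4 Krt6a alone exceeded the Ptprc-positive cells. Cst6, the cystatin M/E of the upper follicle and cornifying cells, held 914 CPM in UV, 236 CPM in UV plus VD and 71.6 CPM in Control, and 56.6% of its UV counts came from 1 cell. Ptprc-positive cells held 843 CPM of Cst6 in UV, 925 CPM in UV plus VD and 666 CPM in Control. Of 9 measured upper follicle genes, 5 were higher in UV (Cst6, Klk10, Sostdc1, Defb6 and Lgr6) and 2 lower (Krt23 and Plet1), and their median was 0.61. Defb6 did not exceed the Ptprc-positive cells of the UV library, nor Krt23 those of the Control library.

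**Figure D3:**
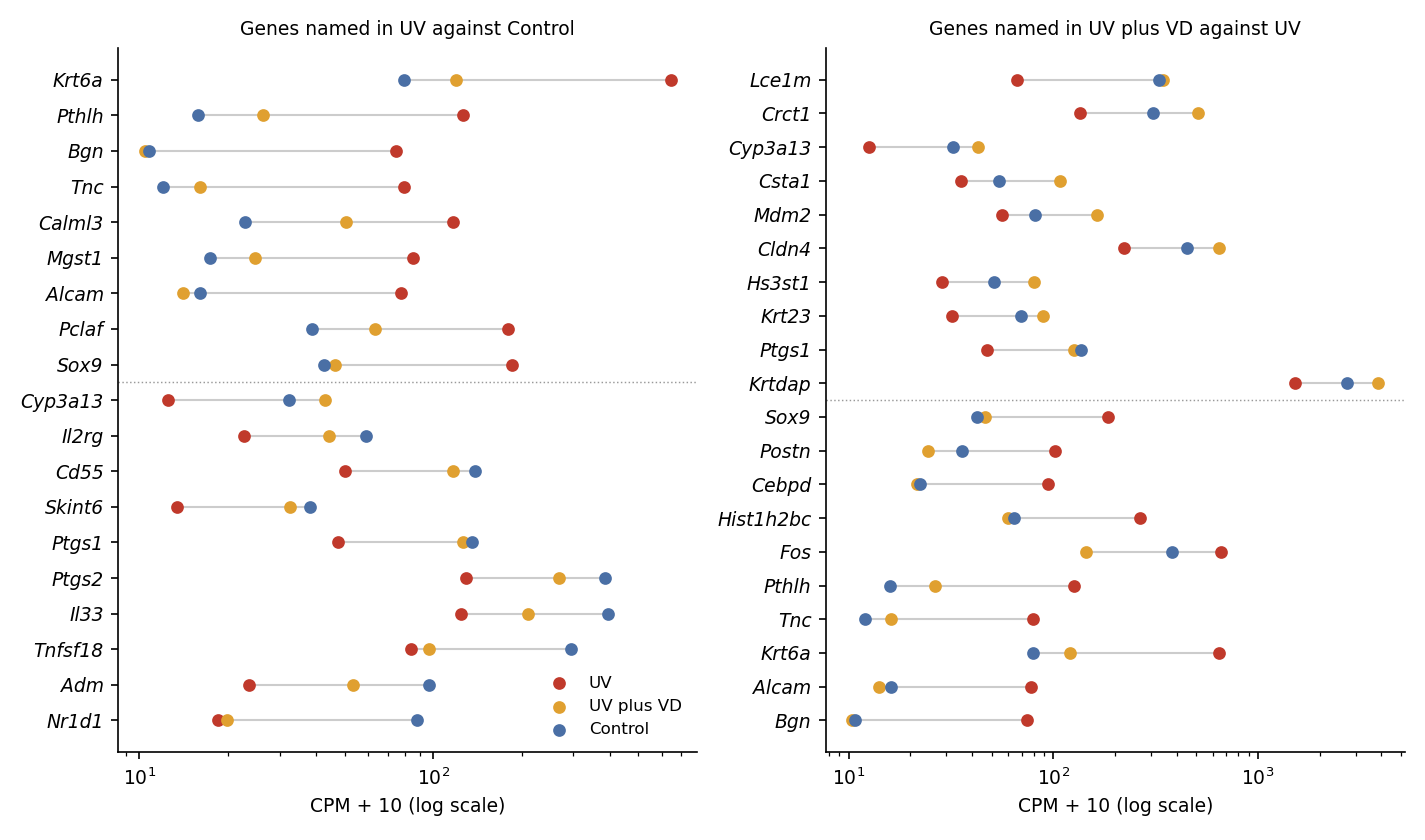
Level of genes named for their gaps in UV against Control (left) and in UV plus VD against UV (right), as CPM plus 10 on a log x axis, with 1 point per library. Krt6a stands at 633 CPM in UV, 110 CPM in UV plus VD and 69.6 CPM in Control.

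Of 28 measured cell cycle genes, 20 were higher in UV and 1 was lower, with a median of 0.95 (17 of the 25 that reached 20 counts in Control, with a median of 0.86), and 19 of the 20 exceeded the Ptprc-positive cells. Mki67, the proliferation antigen, held 81.5 CPM in UV, 22.1 CPM in UV plus VD and 14.9 CPM in Control, in 15.9%, 7.87% and 4.55% of members in that order. Thinned to 2500 counts, Mki67 was found in 10.6% of UV members, 2.10% of UV plus VD members and 2.06% of Control members, while 11.2%, 7.59% and 1.90% of Ptprc-positive cells held it unthinned, in that order. Top2a, the topoisomerase of dividing cells, held 86.6 CPM in UV, 47.0 CPM in UV plus VD and 15.7 CPM in Control. Pclaf, a PCNA-binding factor, held 170 CPM in UV, 53.1 CPM in UV plus VD and 28.6 CPM in Control. The UV plus VD library lay between the other 2 for all of them, and Ccnd2, the cyclin D2 gene, was the one on the lower side, at 236 CPM in UV, 316 CPM in UV plus VD and 530 CPM in Control.

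Both cyclooxygenase genes and Il33 were among the genes with the widest gaps on the lower side. Ptgs2, the inducible cyclooxygenase, held 119 CPM in UV, 258 CPM in UV plus VD and 376 CPM in Control, 3.16-fold lower in UV than in Control (2.66 to 3.79). Ptgs1, the constitutive one, held 37.4 CPM in UV, 116 CPM in UV plus VD and 126 CPM in Control, below the 350 CPM of Control Ptprc-positive cells. Il33, a nuclear alarmin of the interleukin 1 family, held 115 CPM in UV, 201 CPM in UV plus VD and 384 CPM in Control, 3.35-fold lower in UV than in Control (2.80 to 4.02). UV was the lowest library for all 3.

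Tnfsf18, the GITR ligand, held 73.9 CPM in UV, 87.1 CPM in UV plus VD and 285 CPM in Control. Adm, the vasodilator peptide adrenomedullin, held 13.6 CPM in UV, 43.3 CPM in UV plus VD and 86.5 CPM in Control. Cd55, which shields cells from complement, held 39.9 CPM in UV, 107 CPM in UV plus VD and 128 CPM in Control. Tnfsf18 was low in both irradiated libraries, whereas for Adm and Cd55 the UV plus VD library lay between the other 2. Skint6, Il2rg and Cyp3a13 were lower too, at 3.40, 12.7 and 2.55 CPM in UV and 28.1, 49.1 and 22.3 CPM in Control, levels that the Ptprc-positive cells of the Control library exceeded.

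Several abundant epidermal genes were lower in UV. Serpinb2, a serpin that inhibits urokinase, held 12446 CPM in UV, 24730 CPM in UV plus VD and 28007 CPM in Control. Ly6d, a surface protein of interfollicular keratinocytes, held 3428 CPM in UV, 5835 CPM in UV plus VD and 7289 CPM in Control. Ifi202b, an interferon-inducible DNA-binding protein, held 1658 CPM in UV, 3657 CPM in UV plus VD and 4209 CPM in Control. UV was the lowest library for each. Of 10 measured interfollicular basal genes, 2 were lower in UV and 0 higher, with a median of -0.26.

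The p53, interferon, BMP and Notch lists were mixed. Of 22 measured p53 targets, 3 were higher in UV and 6 lower, with a median of -0.01. Cdkn1a, the cell cycle inhibitor p21, held 732 CPM in UV, 1552 CPM in UV plus VD and 1194 CPM in Control, below the Ptprc-positive cells of each library, which held 1403, 2048 and 2020 CPM. Trp53inp1, which p53 induces under stress, was the one higher target above those cells, at 104 CPM in UV, 66.6 CPM in UV plus VD and 42.0 CPM in Control. Bmp2 and Bmp4, ligands that hold follicle stem cells at rest in mice, were lower in UV, with 22.9 CPM of Bmp2 and 8.49 CPM of Bmp4 in UV, 43.3 and 16.4 CPM in UV plus VD, and 58.9 and 33.4 CPM in Control.

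Of 25 measured BMP and TGF-beta genes, 4 were higher in UV and 2 lower, with a median of 0.11. Of 7 measured Notch genes, 3 were higher in UV and 1 lower, with a median of 0.32, among them the ligand Jag1 at 47.5 CPM in UV, 15.1 CPM in UV plus VD and 22.8 CPM in Control. Of 15 measured interferon response genes, 2 were higher in UV and 2 lower, with a median of 0.18, and of 1 measured Hedgehog gene none was called.

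Of 21 measured cytokines and chemokines, 6 were higher in UV and 9 lower, with a median of -0.45. Ccl2, a monocyte-attracting chemokine, held 146 CPM in UV, 50.3 CPM in UV plus VD and 19.7 CPM in Control, but Ptprc-positive cells held 2549, 4115 and 3484 CPM in that order. Of the 6 that were higher, Cxcl14, a chemokine made by resting epithelium, was the one above those cells, at 557 CPM in UV, 358 CPM in UV plus VD and 203 CPM in Control.

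Because 101 UV members held Cd34, Lhx2, Lgr5 or Sox9, against 51 in UV plus VD and 70 in Control, members with and without these genes were also described apart. Among members without any of the 4, 125 in UV, 330 in UV plus VD and 611 in Control, the median log2 ratio of UV to Control was 0.20 for the bulge list and 0.48 for the cell cycle list. These members were chosen in part by genes of the bulge list, so its median there is a description. Krt6a held 346 CPM in UV, 79.2 CPM in UV plus VD and 61.9 CPM in Control among them, and 980, 301 and 134 CPM in that order among members with any of the 4 genes. UV was the highest library on both sides of the split.

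Igfbp3, a binding protein of insulin-like growth factors that keratinocytes of the basal layer secrete, divided the UV members. It held 58.1 CPM in UV members with any of the 4 genes, against 641 CPM in UV plus VD and 694 CPM in Control, and 1293 CPM in UV members without them, against 1623 CPM in UV plus VD and 1427 CPM in Control. Serpinb2 held 6812 CPM in UV members with any of the 4 genes, against 21834 CPM in UV plus VD and 24504 CPM in Control, and 17115 CPM in UV members without them. Pthlh held 221 CPM in UV members with them and 29.5 CPM in those without. Cst6 held 1879 CPM in UV members with them and 115 CPM in those without, and 193 CPM in UV plus VD and 68.1 CPM in Control members without them. The median of the upper follicle list, 0.61 over all members, was -0.055 in members without the 4 genes. With the rule lacking Krt1 and Krt10, the UV to Control ratios of Foxc1, Trp53inp1, Cdkn1a, Bmp2, Jag1, Wnt3, Ptgs1, Skint6 and Ly6d fell under 1.5-fold.

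**Figure D4:**
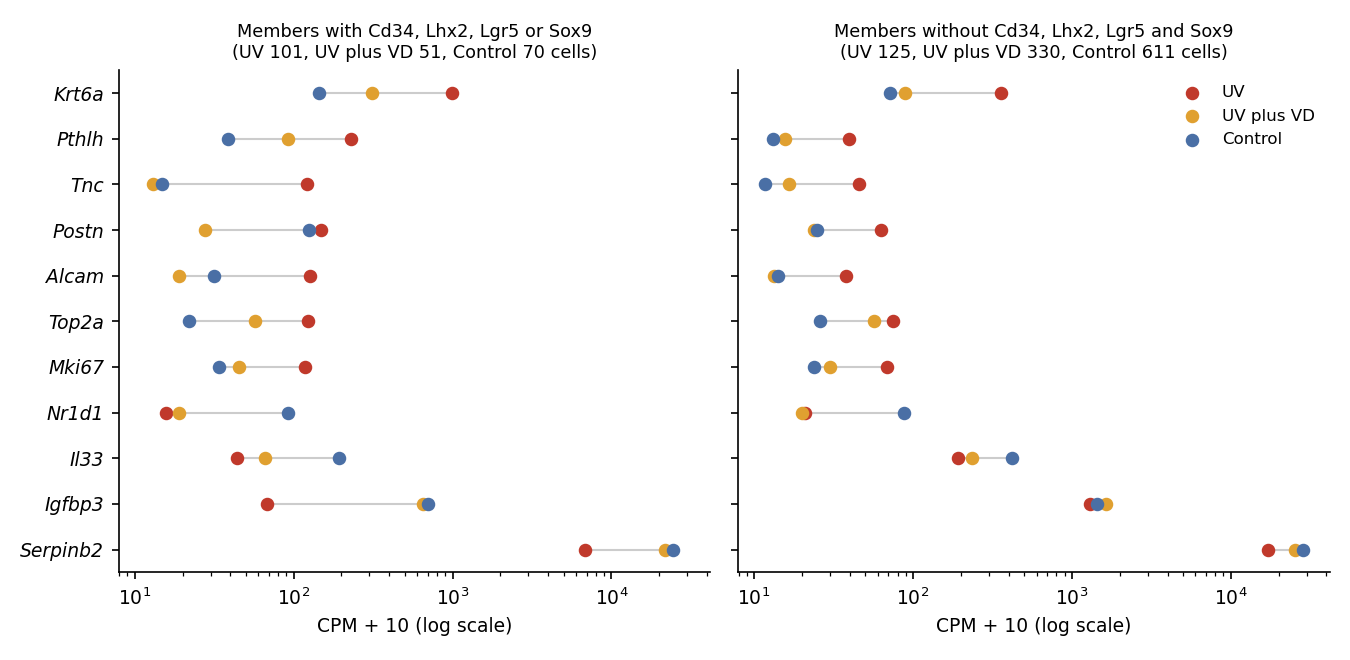
CPM plus 10 on a log x axis for 11 genes in members with at least 1 count of Cd34, Lhx2, Lgr5 or Sox9 (left) and in members without any of them (right), with 1 point per library. Igfbp3 stands at 58.1 CPM in UV members on the left and at 1293 CPM in UV members on the right.

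UV plus VD members held less RNA of bulge and cell division genes and of Krt6a than UV members. They held more of 12 of 22 measured epidermal differentiation genes and of 4 of 21 measured p53 targets. Of these, 8 of the 12 and Cdkn1a among the 4 did not exceed the Ptprc-positive cells of the UV plus VD library. The comparison shares the UV library with the one above, so a gene that was high in UV there tends to be low here by construction, and overlap between the comparisons is not counted. Of 6645 genes, 556 (8.37%) were higher in UV plus VD and 525 (7.9%) lower, with a median log2 ratio of 0.05. With totals taken without ribosomal RNA and mitochondrial genes the split was 425 higher and 760 lower.

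Bulge and cell cycle genes were lower in UV plus VD. Of 18 measured bulge genes, 14 were lower and 0 higher, and their median was -1.25. Of the 18, 8 reached 20 counts in UV alone, all of them lower, and of the 10 that reached 20 counts in UV plus VD, 6 were lower, with a median of -0.87. Lhx2 was 15.6-fold lower than in UV (5.49 to 60.9). Lgr5 and Cd34 held 0 counts in UV plus VD, and the exact interval of each fold decrease from UV had a lower limit of 11.4 and no upper limit. Sox9 was 4.81-fold lower (3.73 to 6.24), Tnc 11.4-fold lower (6.5 to 21.2) and Postn 6.41-fold lower (4.34 to 9.67). Of 28 measured cell cycle genes, 15 were lower and 0 higher, and their median was -0.60 (9 of the 22 that reached 20 counts in UV plus VD, with a median of -0.53). Mki67 was 3.69-fold lower (2.62 to 5.25).

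Krt6a was 5.76-fold lower in UV plus VD than in UV (5.0 to 6.65), Pthlh 7.11-fold lower (4.97 to 10.4) and Alcam 16.6-fold lower (8.58 to 36.0). Cebpd, a C/EBP transcription factor, held 11.4 CPM in UV plus VD, 84.1 CPM in UV and 12.4 CPM in Control. Hes1, the Notch effector, held 59.3 CPM in UV plus VD, 228 CPM in UV and 140 CPM in Control. Fos, an immediate early AP-1 subunit, held 134 CPM in UV plus VD, 649 CPM in UV and 371 CPM in Control, while Ptprc-positive cells held 284, 973 and 452 CPM in that order. Hist1h2bc, a histone gene, held 49.9 CPM in UV plus VD, 256 CPM in UV and 53.9 CPM in Control, with 313 CPM in UV Ptprc-positive cells. Hes1 and Fos lay below Control in UV plus VD, and Cebpd and Alcam lay close to it.

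Of 22 measured epidermal differentiation genes, 12 were higher in UV plus VD than in UV and 2 lower, with a median of 0.65, but 8 of the 12 did not exceed the Ptprc-positive cells of the UV plus VD library. Krtdap, a secreted peptide of suprabasal cells, held 3867 CPM in UV plus VD, 1500 CPM in UV and 2714 CPM in Control, with 16158 CPM in UV plus VD Ptprc-positive cells. Lce1m, a late cornified envelope gene, held 332 CPM in UV plus VD, 56.0 CPM in UV and 317 CPM in Control, where 79.2% of its counts came from 1 cell, and UV plus VD Ptprc-positive cells held 333 CPM. Cyp3a13, a cytochrome P450, held 32.7 CPM in UV plus VD, 2.55 CPM in UV and 22.3 CPM in Control, with 50.5 CPM in UV plus VD Ptprc-positive cells. Crct1, Csta1 and Krt23, further cornification genes, held 498, 97.7 and 79.3 CPM in UV plus VD, 125, 25.5 and 22.1 CPM in UV, and less than the Ptprc-positive cells of the UV plus VD library, which held 937, 223 and 305 CPM.

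A tight junction gene, a p53 target and a sulfotransferase exceeded the Ptprc-positive cells. Cldn4, a claudin, held 634 CPM in UV plus VD, 211 CPM in UV and 439 CPM in Control, 3.0-fold higher in UV plus VD than in UV (2.62 to 3.44). Mdm2, the ubiquitin ligase that p53 induces and that degrades it, held 154 CPM in UV plus VD, 45.8 CPM in UV and 71.3 CPM in Control, 3.36-fold higher in UV plus VD than in UV (2.52 to 4.56). Hs3st1, a heparan sulfate sulfotransferase, held 70.3 CPM in UV plus VD, 18.7 CPM in UV and 41.5 CPM in Control. For each of the 3, UV plus VD lay above Control as well as above UV, except that in members with Cd34, Lhx2, Lgr5 or Sox9 the log2 ratio of Mdm2 to Control was -0.12.

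Of 21 measured p53 targets, 4 were higher in UV plus VD (Mdm2, Cdkn1a, Sesn2 and Sfn) and 1 lower (Plk2), with a median of 0.21. Cdkn1a was 2.12-fold higher than in UV (1.97 to 2.29). Cdkn1a and Plk2 did not exceed the Ptprc-positive cells of the library where they were higher. Of 11 measured genes on the list of the vitamin D receptor with its known targets, 3 were higher (Cdkn1a, Igfbp3 and Tslp) and 1 lower (Cdkn1b), with a median of 0.20. Tslp fell under 1.5-fold in 6 of 14 alternative settings. Its log2 ratio was -0.018 in members without the 4 genes and -0.031 with the rule lacking Krt1 and Krt10. Igfbp3 also fell under 1.5-fold in members without the 4 genes. Cdkn1b did not exceed the Ptprc-positive cells of the UV library. Vdr, the receptor itself, held 56.0 CPM in UV plus VD, 52.6 CPM in UV and 71.6 CPM in Control, and its ratio of UV plus VD to UV was 1.06 (0.783 to 1.46). Cyp24a1, the receptor's classic target, was not analysed here. Of 16 measured stress keratins and alarmins, 6 were higher in UV plus VD and 3 lower, and their median was 0.55, but 4 of the 6 (Ereg, Slpi, Sprr1a and Il1f6) and 2 of the 3 (Sprr1b and Fabp5) did not exceed the Ptprc-positive cells of the library where they were higher. With the rule lacking Krt1 and Krt10, the UV plus VD to UV ratios of Csta1, Krt23, Krtdap, Hist1h2bc, Sesn2 and Igfbp3 fell under 1.5-fold.

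**Figure D5:**
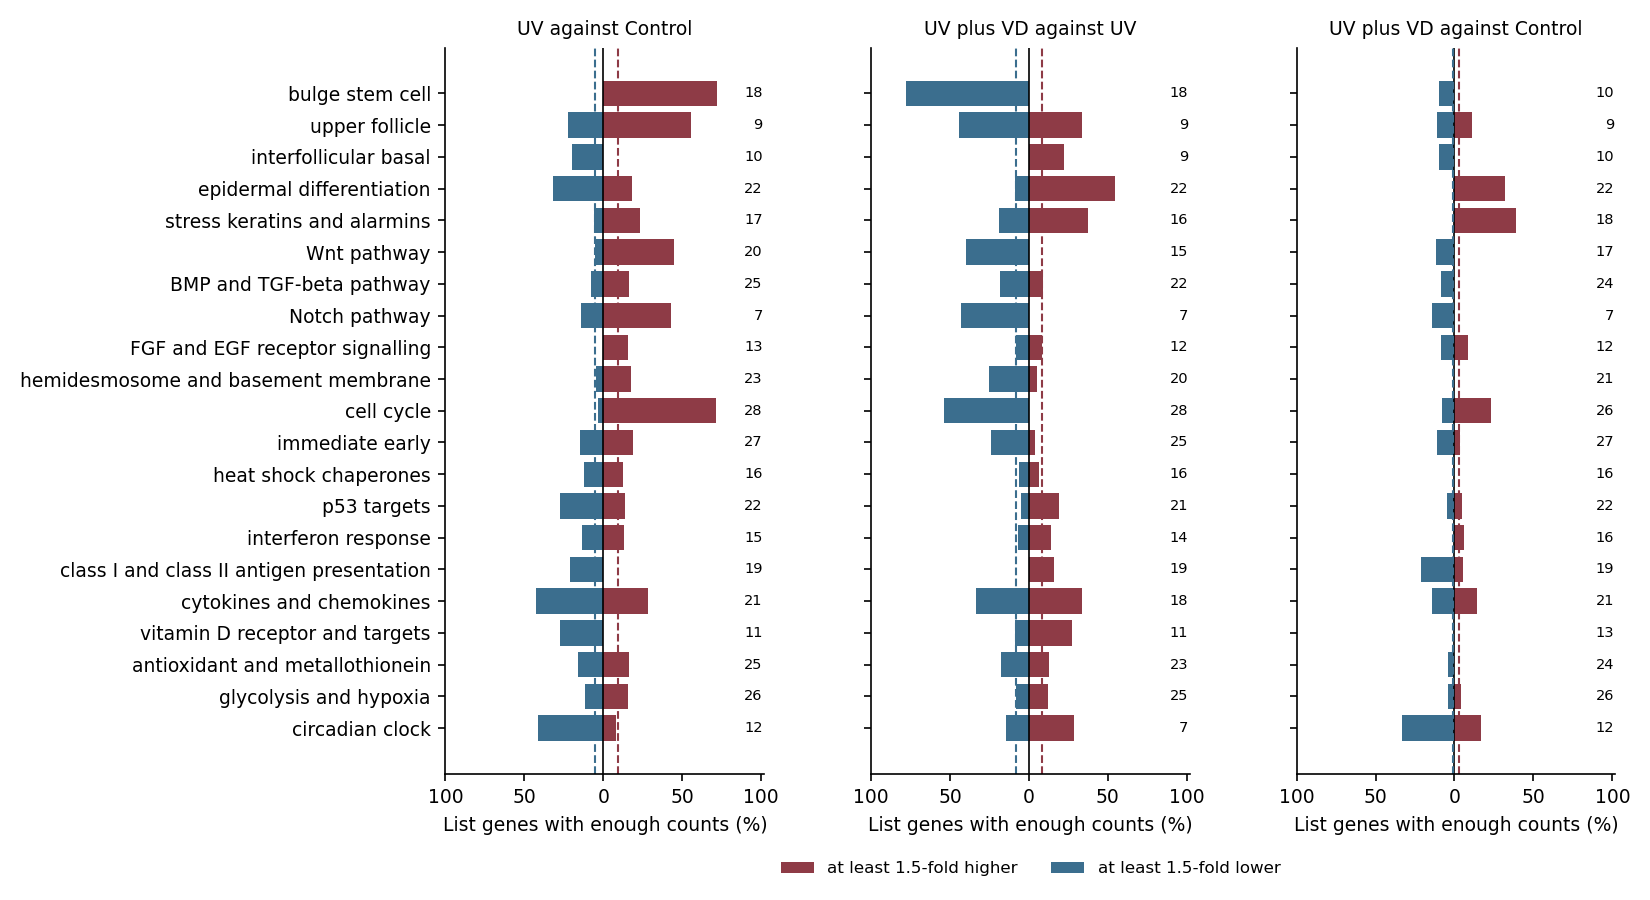
Share of the measured genes of each list, in percent, that were at least 1.5-fold higher (to the right, red) or lower (to the left, blue) in the 3 comparisons, for lists with at least 7 measured genes in each. Numbers at the right of each panel are measured genes, and dashed lines are the shares over all genes, 9.22% and 5.52% in UV against Control. Some measured genes reached 20 counts only in the library where they were higher.

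Between UV plus VD and Control members, the genes on the higher side included Top2a, Cdk1, Krt6a and Arntl, and those on the lower side Fos, Fosb, Atf3, Il33, Tnfsf18 and Nr1d1. Of 7473 genes, 238 (3.18%) were higher in UV plus VD and 83 (1.11%) lower, with a median log2 ratio of 0.05, and with median-of-ratios scaling the split was 172 higher and 124 lower, and with totals without ribosomal RNA and mitochondrial genes 222 and 155. Of 10 measured bulge genes, 0 were higher and 1 lower, Id2, with a median of 0.12. Id2 held 47.6 CPM in Control members and 211 CPM in Control Ptprc-positive cells. Of 26 measured cell cycle genes, 6 were higher and 2 lower, and their median was 0.08. Top2a was 3.0-fold higher in UV plus VD than in Control (2.18 to 4.15), Cdk1 2.60-fold (1.81 to 3.76), Ube2c 2.50-fold (1.92 to 3.27) and Stmn1 2.05-fold (1.68 to 2.52), and all 4 were also higher in UV than in Control. With the rule lacking Krt1 and Krt10 all 4 fell under 1.5-fold in UV plus VD against Control, at log2 ratios of 0.27 for Top2a, 0.18 for Cdk1, 0.26 for Ube2c and 0.22 for Stmn1. Of 18 measured stress keratins and alarmins, 7 were higher in UV plus VD and 0 lower, and their median was 0.36, but 5 of the 7 (Ereg, Plaur, Il1f6, Slpi and Sprr1b) did not exceed the Ptprc-positive cells, and Krt6a was the 1 keratin among them. Of 21 measured cytokines and chemokines, 3 were higher (Ccl20, Ccl2 and Cxcl14) and 3 lower (Il33, Il18 and Nfkbia), with a median of -0.14. Ccl2 and Il18 did not exceed the Ptprc-positive cells of the library where they were higher. Of 22 measured differentiation genes, 7 were higher and 0 lower, and their median was 0.35, with 1 of the 7 above the Ptprc-positive cells.

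Other genes on the higher side serve metabolism, detoxification and desquamation. Gstp1, a glutathione transferase, held 54.4 CPM in UV plus VD, 54.3 CPM in UV and 18.7 CPM in Control. Naa38, a subunit of an N-terminal acetyltransferase, held 43.7 CPM in UV plus VD, 39.9 CPM in UV and 15.4 CPM in Control. Both irradiated libraries held near-equal levels of these genes, and Fhl2, a LIM-domain cofactor, held 37.2 CPM in UV plus VD, 58.6 CPM in UV and 13.7 CPM in Control. Mthfd2, a mitochondrial folate enzyme, held 62.5 CPM in UV plus VD, 30.6 CPM in UV and 24.8 CPM in Control, and was high in UV plus VD alone. Klk7, a desquamation protease, held 459 CPM in UV plus VD, 226 CPM in UV and 198 CPM in Control, against 2379 CPM in Ptprc-positive cells of the UV plus VD library.

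Of 27 measured immediate early genes, 1 was higher in UV plus VD than in Control (Egr2) and 3 were lower (Fosb, Fos and Atf3), and their median was -0.02. Egr2 lay below the Ptprc-positive cells in every library. Fosb held 98.9 CPM in UV plus VD, 212 CPM in UV and 291 CPM in Control, 2.94-fold lower in UV plus VD than in Control (2.56 to 3.39). Atf3, a stress-induced transcription factor, held 699 CPM in UV plus VD, 928 CPM in UV and 1505 CPM in Control. Tnfsf18 was 3.27-fold lower (2.82 to 3.8) and Il33 1.91-fold lower (1.72 to 2.12) in UV plus VD than in Control. Epgn was 2.02-fold lower (1.87 to 2.18), Txnip 2.53-fold lower (1.71 to 3.86) and Pkib 2.36-fold lower (1.71 to 3.31), but Control Ptprc-positive cells held more Txnip (71.1 CPM) and Pkib (131 CPM) than the 33.1 and 46.3 CPM of Control members. Cd74, the invariant chain of class II molecules, is a product of Langerhans and other antigen-presenting cells. It held 164 CPM in UV plus VD, 155 CPM in UV and 397 CPM in Control, and 83.6% of its 402 counts in UV plus VD came from 1 cell, while Control Ptprc-positive cells held 13551 CPM. With the rule lacking Krt1 and Krt10, the UV plus VD to Control ratios of Gstp1, Fhl2, Mthfd2, Klk7, Mdm2, Pkib, Arntl and Nr1d2 fell under 1.5-fold.

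Several clock genes lay apart from Control in both irradiated libraries. In the clock, Arntl and its partner drive genes through the E-box CACGTG, and the product of Nr1d1, REV-ERB alpha, represses Arntl and Nfil3 through the half-site TAGGTCA, which ROR receptors also bind. Of 12 measured clock genes, 5 were lower in UV than in Control and 1 higher, with a median of -0.49, and in UV plus VD against Control 4 were lower and 2 higher, and their median was -0.39. Of the 12, 7 reached 20 counts in Control but not in UV, and 4 of these 7 were lower in UV; the 5 that reached it in UV had a median of -0.04. Likewise 5 reached it in Control but not in UV plus VD, 2 of them lower, and the 7 that reached it in UV plus VD had a median of 0.29. These comparisons share the Control library, so the values of each are given side by side.

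Nr1d1 held 8.49 CPM in UV, 9.81 CPM in UV plus VD and 77.9 CPM in Control, 9.18-fold lower in UV than in Control (4.92 to 19.3) and 7.94-fold lower in UV plus VD than in Control (5.24 to 12.6). Tef, a PAR bZIP output factor, held 0 counts in UV, 0.818 CPM (2 counts) in UV plus VD and 11.9 CPM in Control. The exact interval of the fold decrease of Tef in UV from Control had a lower limit of 3.65 and no upper limit. Bhlhe40, an E-box repressor, held 129 CPM in UV, 151 CPM in UV plus VD and 285 CPM in Control. Nr1d2, the second REV-ERB gene, held 6.79 CPM in UV, 6.13 CPM in UV plus VD and 18.2 CPM in Control, and Hlf, another PAR bZIP factor, held 1.70, 4.09 and 10.6 CPM in that order and passed 1.5-fold in UV. Ciart, a repressor of the clock, held 0.849 CPM in UV, 1.23 CPM in UV plus VD and 6.07 CPM in Control, and its log2 ratios to Control of -0.57 in UV and -0.52 in UV plus VD fell short of 1.5-fold. Control Ptprc-positive cells held 29.5 CPM of Nr1d2, 10.7 CPM of Tef, 10.7 CPM of Hlf and 10.7 CPM of Ciart.

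Other clock genes did not follow that direction. Arntl held 45.8 CPM in UV, 85.0 CPM in UV plus VD and 42.5 CPM in Control, and was 2.0-fold higher in UV plus VD than in Control (1.62 to 2.47). Cry1 held 34.0 CPM in UV, 78.5 CPM in UV plus VD and 48.6 CPM in Control, and its log2 ratio of UV plus VD to Control was -0.11 with the rule lacking Krt1 and Krt10. Nfil3 held 49.2 CPM in UV, 24.5 CPM in UV plus VD and 18.2 CPM in Control, below the Ptprc-positive cells of the UV library at 85.9 CPM. The pattern was not confined to members: over all cells Nr1d1 held 15.3 CPM in UV, 16.9 CPM in UV plus VD and 50.2 CPM in Control. The labels do not state the hour at which mice were sampled, so hour and treatment cannot be told apart.

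Promoters of 3 clock genes are printed to show where these motifs lie in Tef, which was lower than Control in both irradiated libraries, in Ciart, whose ratios fell short of 1.5-fold, and in Arntl, which was higher in UV plus VD. Each runs 5′ to 3′ from 250 bases before to 50 after the gene's start, from RefSeq on GRCm38.p6, with the motif in capitals. Tef and Arntl have 2 listed promoters each: both of Tef hold the motif, and for Arntl the one that holds it is shown. Tef lies on the plus strand at chr15:81802423-81802722, Ciart on the minus strand at chr3:95882179-95882478 and Arntl on the plus strand at chr7:113207261-113207560.
Tef: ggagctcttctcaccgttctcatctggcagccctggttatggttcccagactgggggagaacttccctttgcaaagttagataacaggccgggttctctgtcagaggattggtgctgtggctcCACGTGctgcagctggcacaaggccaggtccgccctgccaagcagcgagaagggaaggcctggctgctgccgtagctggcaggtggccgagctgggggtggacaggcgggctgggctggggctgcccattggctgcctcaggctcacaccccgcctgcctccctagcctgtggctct
Ciart: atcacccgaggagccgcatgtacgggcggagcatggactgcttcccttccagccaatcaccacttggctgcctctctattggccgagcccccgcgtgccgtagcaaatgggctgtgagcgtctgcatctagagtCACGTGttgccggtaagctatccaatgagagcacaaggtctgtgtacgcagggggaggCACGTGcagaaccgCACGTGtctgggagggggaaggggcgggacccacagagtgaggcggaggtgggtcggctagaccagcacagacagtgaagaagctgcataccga
Arntl: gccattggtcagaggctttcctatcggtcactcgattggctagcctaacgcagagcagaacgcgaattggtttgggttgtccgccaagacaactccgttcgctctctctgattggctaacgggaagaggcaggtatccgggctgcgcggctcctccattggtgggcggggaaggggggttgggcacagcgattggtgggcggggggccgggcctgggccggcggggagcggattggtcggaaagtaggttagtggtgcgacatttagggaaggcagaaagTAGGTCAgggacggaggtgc
CACGTG, which reads the same on both strands, occurs 1 time in the Tef promoter and 3 times in that of Ciart, and TAGGTCA, sought on both strands, occurs 1 time in that of Arntl. Over all 32851 promoters of this length, 7.15% hold CACGTG and 2.606% hold TAGGTCA. Of 10 clock genes looked up, 9 were matched, of which 4 hold CACGTG (Tef, Ciart, Cry1 and Per1) and 2 hold TAGGTCA (Arntl and Nfil3) in a listed promoter. A match is a description of the letters in this window, and the windows of Nr1d1, Nr1d2 and Hlf, which were lower in UV, hold neither motif. A link between motif and direction was not tested.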

How the data were processed

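The authors deposited 1 table of gene-by-cell counts for each of 3 libraries, and it was used as deposited; neither the labels nor the files say whether these are read or molecule counts. The submitters' processing notes name FastQC, fastp, STAR, featureCounts and GRCh38, a human build, while the gene symbols are of mouse. Cells with at least 200 genes and at most 20% mitochondrial counts were kept (5451 of 5502 in UV, 6199 of 6234 in UV plus VD, 9078 of 9098 in Control), with median totals of 7566, 9301 and 6822.5 counts. Doublets were not called or removed here.

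The members and gene lists were chosen with earlier results of these data known. Member counts were summed per library and scaled to their total (CPM). Beside lists, the text names in each comparison the 10 highest and 10 lowest genes with at least 50 counts, found in at least 10% of members of the library with more, with at most 20% of counts from 1 cell and an interval beyond 1.5-fold. Some of these genes are not reported here. Ratios have exact conditional and shares exact binomial (Clopper-Pearson) 95% intervals, for counting error only. For genes, 14 alternatives were tried, 3 of them chosen after seeing the data, and 5 for shares. Calls and intervals were tested on simulated counts drawn independently for each gene and library. Such draws leave out the clustering of counts in single cells, so they cannot show whether the intervals are wide enough here. Python 3.11.15, NumPy 2.4.6, SciPy 1.17.1, pandas 2.3.3 and Matplotlib 3.10.9 were used.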

Additional observations from a re-analysis of the deposited data

How the results depend on the processing

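No paired analysis was possible because each group has 1 library, and no replicate could be left out. Of the genes the text names with log2 ratios past 1.5-fold, some stayed past it under every alternative that measured them. These were 44 of 62 genes in UV against Control and 20 of 35 in UV plus VD against UV. In UV plus VD against Control they were 11 of 30. Not every gene had enough counts in all 14 alternatives: Lhx2, Cd34 and Lgr5 were measured in 11 in UV against Control. With a pseudocount of 1 CPM, 1248 genes were higher and 898 lower in UV against Control, 1030 and 841 in UV plus VD against UV, and 664 and 424 in UV plus VD against Control. A minimum of 50 counts left 342 higher in UV against Control and 219 lower in UV plus VD against UV, and a minimum of 5 counts gave 1123 and 918. In UV plus VD against Control, 155 were lower with totals without ribosomal RNA and mitochondrial genes, 236 in members with Cd34, Lhx2, Sox9 or Lgr5, 191 in members with at least 20 Krt17 counts per 10000, and 292 with the rule lacking Krt1 and Krt10. That last rule gave 420 higher and 168 lower in UV against Control and 131 higher in UV plus VD against UV, and members without the 4 bulge genes gave 304 lower in UV plus VD against UV. The share ratio of UV plus VD to UV was 1.19 in thinned cells, 0.911 without the Krt79 part and 0.95 over keratin-expressing cells, and that of UV to Control was 0.888 and 0.879 under the last 2. Log2 ratios turned sign for Lce1c in UV against Control (0.90 in members with the 4 genes, 0.65 without the 5% of cells with the highest totals). In UV plus VD against UV they did so for Cst6 (0.70 in members without the 4 genes, 0.16 with the rule lacking Krt1 and Krt10), Tslp (-0.018 and -0.031 under the same alternatives) and Csta1 (-0.82 with the rule lacking Krt79 and Stfa3). In UV plus VD against Control they did so for Mdm2 (-0.12 in members with the 4 genes), Cd74 (2.43 in members with at least 20 Krt17 counts per 10000) and Cry1 (-0.11 with the rule lacking Krt1 and Krt10). The upper follicle median in UV against Control was -0.055 in members without the 4 genes. The causes were not tested.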
